A study of Homo sapiens with 4 samples.

Results

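This account describes the cytochrome P450 genes of Huh7 and HepG2, a pair of established human liver tumour cell lines, with and without knockdown of COP1. Members were the genes whose symbol is CYP followed by a family number, a subfamily letter and a gene number. The enzymes CYP7A1, CYP7B1, CYP8B1, CYP27A1, CYP39A1 and CYP51A1, which serve bile acid and cholesterol synthesis, were left out. The deposited tables carry NCBI Gene numbers without symbols, so symbols were taken from RefSeq. They were found for 44698 of the 46427 gene numbers, and 50 genes were members. Each line received an siRNA at 20 nM, either the negative control (NC-siRNA, with genotype label WT) or COP1-siRNA (genotype label COP1 Knockdown), which targets COP1, a subunit that chooses the substrates of a ubiquitin ligase. The cells, grown in DMEM with serum, were exposed to the siRNA and a lipid carrier for 5 h and collected at 48 h of transfection. There was 1 library per line and siRNA, so the differences have no replicate check and carry no p-values. The knockdown was transient and partial: COP1 was at 19.7 and 6.18 TPM with NC-siRNA and COP1-siRNA in Huh7, and at 26.9 and 16.1 TPM in HepG2. TPM is a level per transcript length, scaled to the same total of 1000000 in every library.

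Cytochromes P450 are heme enzymes that insert oxygen into their substrates. Those of the endoplasmic reticulum receive electrons from cytochrome P450 oxidoreductase (POR), and those of mitochondria from ferredoxin. In the liver, families 1 to 3 oxidize drugs and other foreign compounds, family 4 and a few others oxidize fatty acids and eicosanoids, and others make or break down steroid hormones, vitamin D and retinoids. Liver tumour lines in culture are known to keep little of the drug-oxidizing set of hepatocytes.

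All 8 hepatocyte and hepatoma markers examined, ALB among them, were above 1 TPM in all 4 libraries. Their summed level was 17849 and 15778 TPM in Huh7 and 2665 and 3067 TPM in HepG2, and their median log2 change with COP1-siRNA was −0.11 in Huh7 and 0.39 in HepG2. The part of these shifts in the results below was not tested. Of 4 markers of other cells, the leukocyte gene PTPRC was at 0 throughout, COL3A1 stayed under 1 TPM, COL1A1 reached 2.47 TPM in HepG2, and the endothelial gene PECAM1 was at 5.08 and 7.36 TPM in Huh7. The ratio of coverage to FPKM at CYP1B1, which follows sequencing depth, ran from 5.75 to 7.47 and was higher with COP1-siRNA in each line.

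A member counted as on in a line when either of its libraries there gave 1 TPM or more, barely detected if its highest TPM there was from 0.1 to under 1, and off if both values were under 0.1. In Huh7, 13 members (26.0%) were on, 8 barely detected and 29 off. In HepG2, 21 members (42.0%) were on, 8 barely detected and 21 off. With a minimum of 5 TPM the order of the lines turned, with 8 members on in Huh7 and 6 in HepG2. Of all protein-coding gene numbers, 58.1% were on in Huh7 and 64.1% in HepG2, and of all gene numbers 28% and 31.1%. Altogether 23 members were on in at least 1 line. Of these, 11 were on in both lines, 2 in Huh7 alone (CYP2B6 and CYP2C18) and 10 in HepG2 alone. The other 27 were on in neither line, and 15 of them were listed at 0 in all 4 libraries. In bulk RNA, fewer expressing cells and less RNA per cell cannot be told apart.

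**Figure D1:**
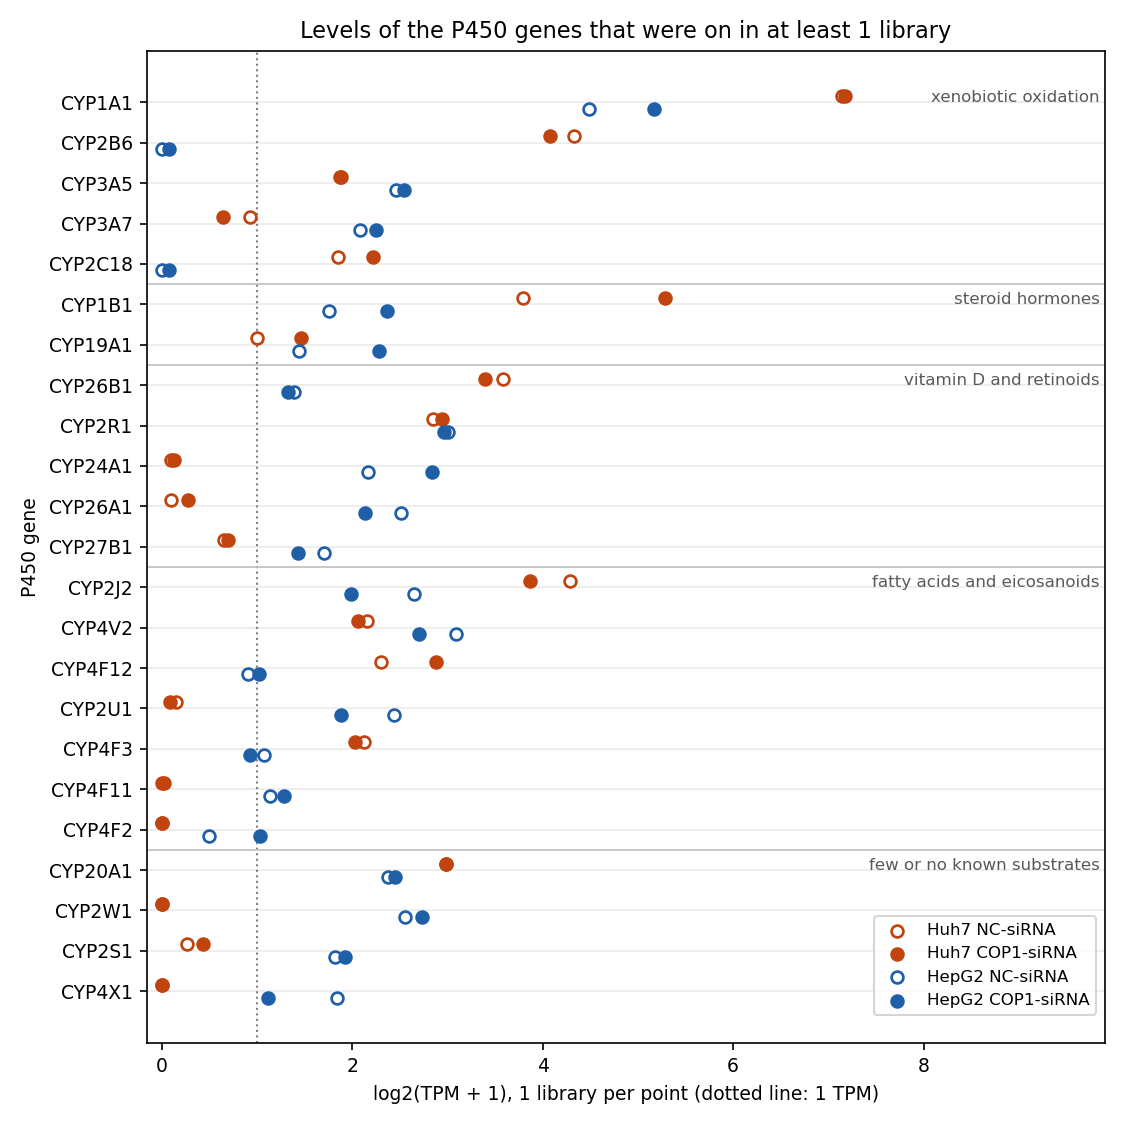
Level of each of the 23 P450 genes that were on, as log2(TPM + 1), grouped by role. Each point is 1 library, open for NC-siRNA and filled for COP1-siRNA, and a filled point can hide an open one at the same place. CYP1A1 in Huh7 stands farthest to the right, at 140.0 and 144 TPM, and CYP2B6 is near 0 in HepG2 and at 19.0 and 15.8 TPM in Huh7.

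The members of xenobiotic oxidation were mostly silent: 5 of 16 were on, and only CYP1A1 and CYP3A5 were on in both lines. In what follows the value with NC-siRNA is given before that with COP1-siRNA. CYP1A1 (chromosome 15, 74719542 to 74725528, minus strand, in the GRCh38 coordinates of the files) oxidizes polycyclic aromatic compounds and is induced by the aryl hydrocarbon receptor (AHR). It was at 140.0 and 144 TPM in Huh7 and at 21.4 and 34.9 TPM in HepG2, the highest level of any member in every library. CYP1A1 alone made up 59.9% and 55.8% of the summed TPM of the 50 members in Huh7, and 23.8% and 33.8% in HepG2. Each Huh7 value was above both HepG2 values, but the libraries of a line are a control and a knockdown, not replicates. CYP1A2, its relative in caffeine and drug oxidation, lies 23.3 kb away and did not exceed 0.183 TPM in any library. The annotated start of CYP1A1 is printed because this is the most abundant member. The window is chr15:74725479-74725778 on the minus strand of GRCh38.p14 from RefSeq, from 250 bases before the start to 50 after it. Capitals mark GCGTG, the core that AHR and its partner ARNT bind, which was present on either strand in 36.5% of the 35116 RefSeq windows of this size. A longer form, TNGCGTG (N is any base), was absent from this window. Sequence farther upstream was not examined, and binding of AHR was not tested.
CYP1A1: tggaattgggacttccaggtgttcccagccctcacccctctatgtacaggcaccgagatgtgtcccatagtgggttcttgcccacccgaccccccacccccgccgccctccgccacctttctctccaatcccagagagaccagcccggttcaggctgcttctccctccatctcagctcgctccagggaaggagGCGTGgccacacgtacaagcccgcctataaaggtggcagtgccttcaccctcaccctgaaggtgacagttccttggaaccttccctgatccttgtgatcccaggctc

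CYP2B6, which oxidizes drugs such as bupropion and is induced by the receptor CAR, separated the lines most. In Huh7 CYP2B6 was at 19.0 and 15.8 TPM. It was listed at 0 in HepG2 with NC-siRNA and at 0.0555 TPM with COP1-siRNA. The gene was thus the second most abundant member of the Huh7 control library and off in HepG2. Its start (chr19:40991032-40991331, plus strand, GRCh38.p14) is printed as that of the member that differs most between the lines. Capitals mark AGGTCA, a half-site of nuclear receptors, found on either strand in 13.8% of all windows. Binding of a receptor there was not tested.
CYP2B6: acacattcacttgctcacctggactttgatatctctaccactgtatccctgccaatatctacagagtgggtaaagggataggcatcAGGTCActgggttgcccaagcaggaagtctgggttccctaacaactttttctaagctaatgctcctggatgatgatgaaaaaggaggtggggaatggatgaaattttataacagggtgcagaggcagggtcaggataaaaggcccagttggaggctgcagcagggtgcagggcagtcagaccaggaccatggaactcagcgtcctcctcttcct
CYP2C18 showed the same split at a lower level, with 2.60 and 3.65 TPM in Huh7 against 0 and 0.0523 TPM in HepG2. CYP2C8 and CYP2C19, which lie in the same stretch of chromosome 10 and oxidize drugs, did not exceed 0.0797 and 0.0274 TPM.

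Within the CYP3A subfamily, CYP3A4, the main drug-oxidizing P450 of the adult liver, was listed at 0 in all 4 libraries. CYP3A5 was at 2.66 and 2.69 TPM in Huh7 and at 4.50 and 4.84 TPM in HepG2. CYP3A7, the form of the fetal liver, was barely detected in Huh7, at 0.907 and 0.568 TPM, and on in HepG2, at 3.23 and 3.75 TPM. ZSCAN25, which overlaps CYP3A5 and CYP3A7 on the opposite strand, was at 9.38 and 9.88 TPM in Huh7 and at 11.9 TPM in the HepG2 control. The CYP3A genes are close in sequence, and how the authors' counting divided reads that fit more than 1 of them is not given in the sources used here. The same holds for the CYP2C, CYP2D and CYP4F genes. Of the drug-oxidizing genes left, CYP2D6 and the alcohol-oxidizing CYP2E1 did not exceed 0.433 TPM, CYP3A43 reached 0.0533 TPM, and CYP2A6, CYP2A13 and CYP2F1 were listed at 0 throughout.

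Of 7 members that act on steroid hormones, CYP1B1 and CYP19A1 were on, both of them in both lines. CYP1B1 (chromosome 2, 38067509 to 38076151, minus strand) hydroxylates oestradiol and, like CYP1A1, is an AHR target. CYP1B1 stood at 12.9 and 37.9 TPM in Huh7 and at 2.39 and 4.15 TPM in HepG2. The highest value was that of Huh7 with COP1-siRNA. CYP19A1 (chromosome 15, 51208057 to 51338596, minus strand), the aromatase that makes oestrogens, was at 1.00 and 1.75 TPM in Huh7 and at 1.71 and 3.86 TPM in HepG2. Its values overlapped between the lines, which was so for no other member that was on. The enzymes of the adrenal and gonadal pathway stayed low: CYP11B1, CYP11B2 and CYP17A1 were listed at 0 throughout, CYP11A1 reached 0.372 TPM and CYP21A2 0.120 TPM, both in HepG2.

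The genes of vitamin D and retinoid metabolism were on in 5 of 7 cases, all 5 in HepG2 and 2 of them also in Huh7. CYP2R1, which makes 25-hydroxyvitamin D in the liver, was at 6.20 and 6.70 TPM in Huh7 and at 7.06 and 6.81 TPM in HepG2, with the lines close together. CYP24A1, which degrades vitamin D, was at 0.0692 and 0.0970 TPM in Huh7 and at 3.49 and 6.18 TPM in HepG2. CYP27B1, which activates vitamin D, was at 0.574 and 0.621 TPM in Huh7 and at 2.26 and 1.69 TPM in HepG2. Both of the latter were thus on in HepG2 only. The retinoic acid hydroxylases CYP26A1 and CYP26B1 were high in opposite lines. CYP26A1 was at 0.0727 and 0.212 TPM in Huh7 and at 4.72 and 3.40 TPM in HepG2, whereas CYP26B1 was at 11.0 and 9.55 TPM in Huh7 and at 1.63 and 1.51 TPM in HepG2. The third gene of the subfamily, CYP26C1, was listed at 0 throughout. CYP27C1, a retinoid desaturase, was found in HepG2 alone, at 0.789 and 0.736 TPM.

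Of 12 members that oxidize fatty acids and eicosanoids, 7 were on, all 7 in HepG2 and 4 of them also in Huh7. CYP2J2, an epoxygenase of arachidonic acid, was at 18.5 and 13.6 TPM in Huh7 and at 5.30 and 2.98 TPM in HepG2. CYP4V2, a fatty acid hydroxylase, was at 3.46 and 3.17 TPM in Huh7 and at 7.53 and 5.53 TPM in HepG2. CYP2U1, another fatty acid hydroxylase, was on in HepG2 alone, at 4.44 and 2.70 TPM, with at most 0.113 TPM in Huh7. The CYP4F genes split by line. CYP4F12 was at 3.95 and 6.39 TPM in Huh7 and at 0.882 and 1.03 TPM in HepG2, and CYP4F3 at 3.37 and 3.10 TPM in Huh7 and at 1.11 and 0.909 TPM in HepG2. CYP4F11 and CYP4F2 were the reverse. CYP4F11 was at 1.21 and 1.43 TPM in HepG2 and did not exceed 0.0188 TPM in Huh7. CYP4F2, which also breaks down vitamin K, was at 0.412 and 1.05 TPM in HepG2 and at 0 in both Huh7 libraries. The fatty acid hydroxylases CYP4A11 and CYP4A22, with CYP4B1 and CYP4F8, were listed at 0 throughout, and CYP4F22 did not exceed 0.320 TPM.

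Among members with few or no known substrates, CYP20A1 was on in both lines, at 6.92 and 6.93 TPM in Huh7 and at 4.20 and 4.45 TPM in HepG2. CYP2W1, a gene known from tumours and fetal tissue, was at 4.89 and 5.66 TPM in HepG2 and listed at 0 in both Huh7 libraries. CHLSN, which overlaps CYP2W1 on the opposite strand, was abundant in all 4 libraries, from 98.8 TPM in the HepG2 control to 173 TPM in the Huh7 control. CYP2S1 was at 0.204 and 0.352 TPM in Huh7 and at 2.52 and 2.79 TPM in HepG2. CYP4X1 was at 2.59 and 1.17 TPM in HepG2 and at 0 in Huh7, but its mean coverage was only 0.517 and 0.299 reads per base. That is 0.20 of coverage per TPM in the HepG2 control against 2.49 at CYP1B1 in the same library, so these TPM values rest on little sequence. Among others, CYP2R1, CYP4F12 and CYP3A5 also had a low ratio in that library, at 0.57, 0.97 and 1.13. In the Huh7 control their ratios were 0.56, 1.14 and 1.17, against 2.68 at CYP1B1, so the limit holds for their Huh7 values too. Of the rest, CYP2A7, CYP4Z1 and the brain enzyme CYP46A1 were listed at 0 throughout, and the pseudogene CYP2D7 did not exceed 0.161 TPM. Another 26 gene numbers bear a CYP name outside the rule, such as pseudogenes and antisense genes, and the highest of them reached 0.136 TPM.

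With NC-siRNA the summed TPM of the 50 members was 234 in Huh7 and 90.2 in HepG2. With COP1-siRNA it was 257 and 103. A member was counted as apart between the lines if its log2(TPM + 1) differed by at least 1 in the same direction with both siRNAs. By this rule 16 of the 23 members were apart, 8 higher in Huh7 and 8 higher in HepG2. Of the 15486 genes on in at least 1 library, 34.6% were apart, 12.2% higher in Huh7 and 22.4% higher in HepG2. The members higher in Huh7 were CYP1A1, CYP1B1, CYP2B6, CYP2C18, CYP2J2, CYP4F3, CYP4F12 and CYP26B1. For CYP26B1 the difference, HepG2 minus Huh7, was −2.19 with NC-siRNA and −2.07 with COP1-siRNA, and for CYP1B1 it was −2.03 and −2.92. The members higher in HepG2 were CYP2S1, CYP2U1, CYP2W1, CYP3A7, CYP4F11, CYP4X1, CYP24A1 and CYP26A1, with 2.07 and 2.71 for CYP24A1. The count was 10 of 20 with FPKM in place of TPM, where 30.3% of all genes were apart, and 8 of 11 with a minimum of 5 TPM, where 34.5% were.

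**Figure D2:**
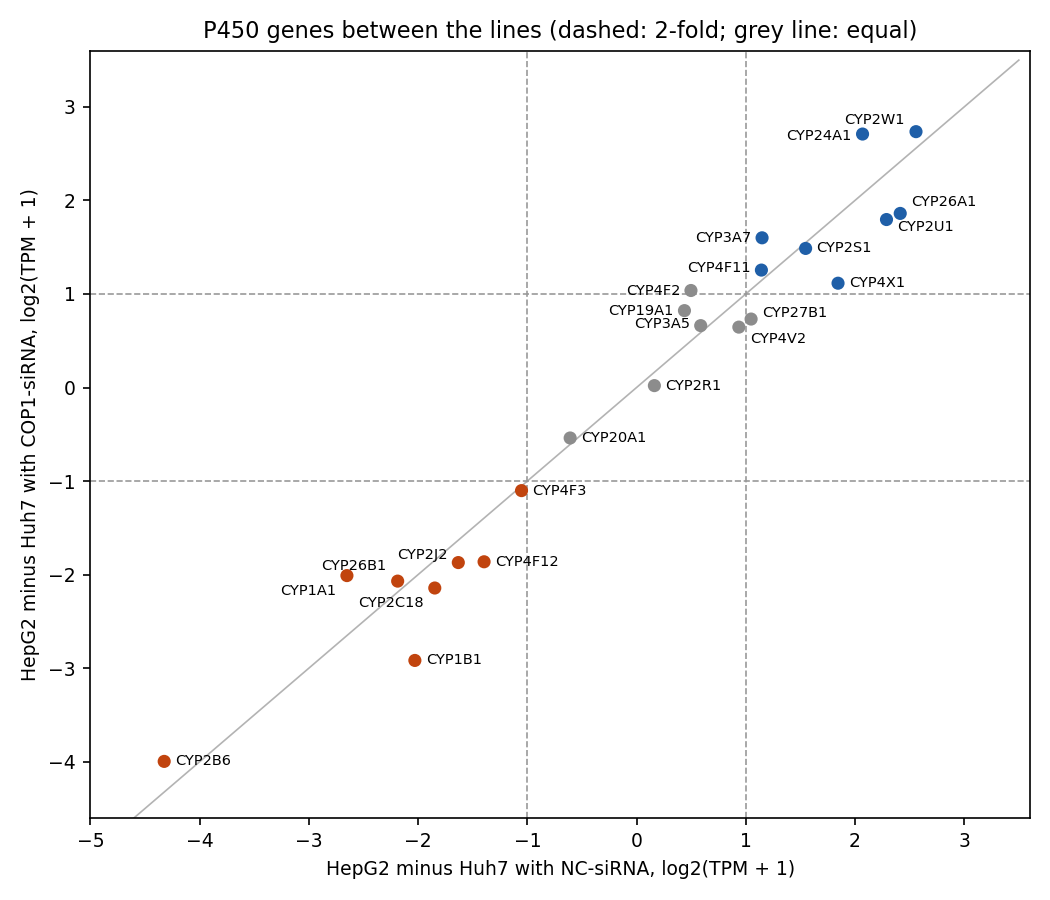
Difference between the lines, HepG2 minus Huh7 in log2(TPM + 1), with NC-siRNA on the horizontal axis and with COP1-siRNA on the vertical axis, for the 23 P450 genes that were on. Each point is a gene, coloured where both differences are at least 1 in size. The 16 coloured points are split evenly, 8 at lower left (higher in Huh7) and 8 at upper right (higher in HepG2).

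The genes were also examined by position, since most human P450 genes of families 2 to 4 lie in clusters. Of the 50 members, 34 had another member within 500 kb, in 9 stretches, and 12 of these 34 (35.3%) were on in at least 1 line. Of the 16 members with no such neighbour, 11 (68.8%) were on. Of all protein-coding gene numbers, 58.1% were on in Huh7 and 64.1% in HepG2, counted by line rather than in either. Most neighbours belong to the same family, so position and family cannot be told apart here. Neighbours often differed. In the stretch of 6 genes on chromosome 19 from 40843541 to 41207539, CYP2B6 was on in Huh7 and CYP2S1 in HepG2, while CYP2A6, CYP2A7, CYP2A13 and CYP2F1 between and beside them were at 0. In the CYP4 stretch on chromosome 1 from 46799046 to 47149738, CYP4X1 alone of 5 genes was on. In the CYP4F stretch on chromosome 19 from 15508487 to 15934866, the adjacent CYP4F3 and CYP4F12 were the pair higher in Huh7, and CYP4F2 and CYP4F11, also adjacent, were found almost only in HepG2.

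**Figure D3:**
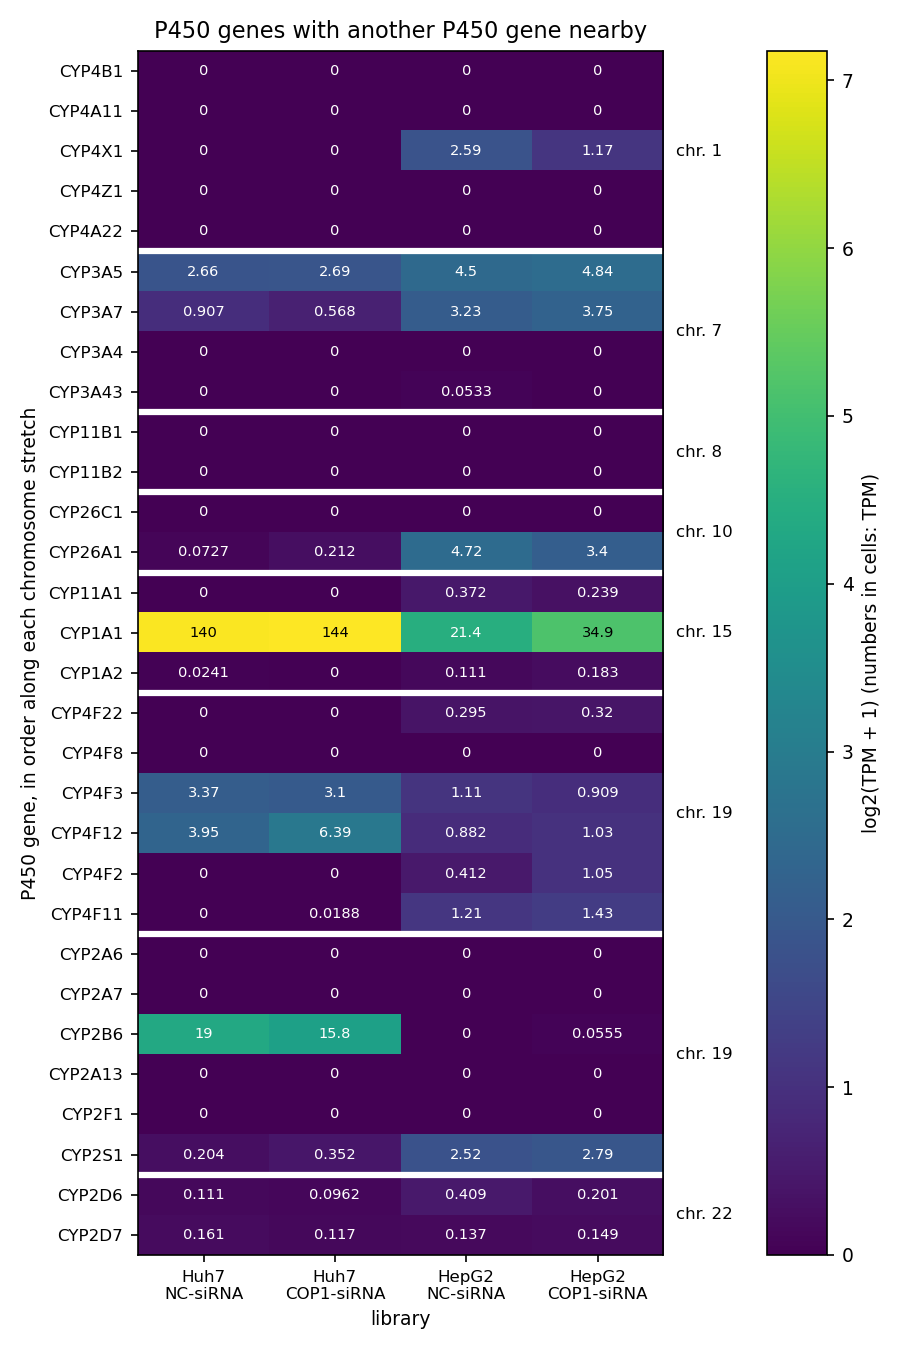
Level of 30 of the 34 P450 genes with another member within 500 kb, in their order along 8 chromosome stretches divided by white lines, with the libraries as columns. Colour gives log2(TPM + 1) and the numbers give TPM. In most stretches 1 or 2 genes are on beside neighbours at or near 0, as CYP1A1 is at 140.0 TPM in the Huh7 control beside CYP1A2 at 0.0241.

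The change with COP1-siRNA was the log2(TPM + 1) of the knockdown library minus that of the control library of the same line, a scale that understates the change of low genes. In Huh7, CYP1B1 was the 1 member of 13 that passed 2-fold. It rose from 12.9 to 37.9 TPM, a log2 change of 1.49, which was the 18th highest among the 13000 genes on in that line. No other member passed 2-fold in either direction. Of all genes on in Huh7, 1.08% passed 2-fold, 0.638% upward and 0.446% downward. The mean coverage of CYP1B1 went from 34.4 to 120 reads per base, so the value rests on ample sequence, and with another pseudocount, FPKM, median-of-ratios or scaled coverage its log2 change stayed between 1.46 and 1.55. RMDN2, which overlaps CYP1B1 on the opposite strand, went from 3.61 to 5.42 TPM. In HepG2, CYP1B1 went from 2.39 to 4.15 TPM, a log2 change of 0.60, which is under 2-fold. Whether the change of CYP1B1 differs between the lines could not be tested.

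None of the 21 members on in HepG2 passed 2-fold, where 0.934% of all genes did, 0.54% upward and 0.394% downward. COP1 itself did not pass 2-fold there either, with a log2 change of −0.71. At 1.5-fold, 4 members were higher and 2 lower, against 2.56% and 1.87% of all genes. The higher ones were CYP19A1 with a log2 change of 0.84, CYP1A1 with 0.68, CYP24A1 with 0.68 and CYP1B1 with 0.60. The lower ones were CYP4X1 with −0.73 and CYP2J2 with −0.66. At this threshold CYP1B1 was still the single member past it in Huh7, where 2.8% of all genes were higher and 2.68% lower, and CYP4F12, with a log2 change of 0.58, came just under it. With a pseudocount of 0.1 in place of 1, CYP19A1 and CYP4F2 were over 2-fold higher in HepG2, with 1.13 and 1.17, and CYP4X1 over 2-fold lower, with −1.09. By scaled coverage the value of CYP4X1 was −0.21. With that pseudocount 2.57% of all genes passed 2-fold.

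**Figure D4:**
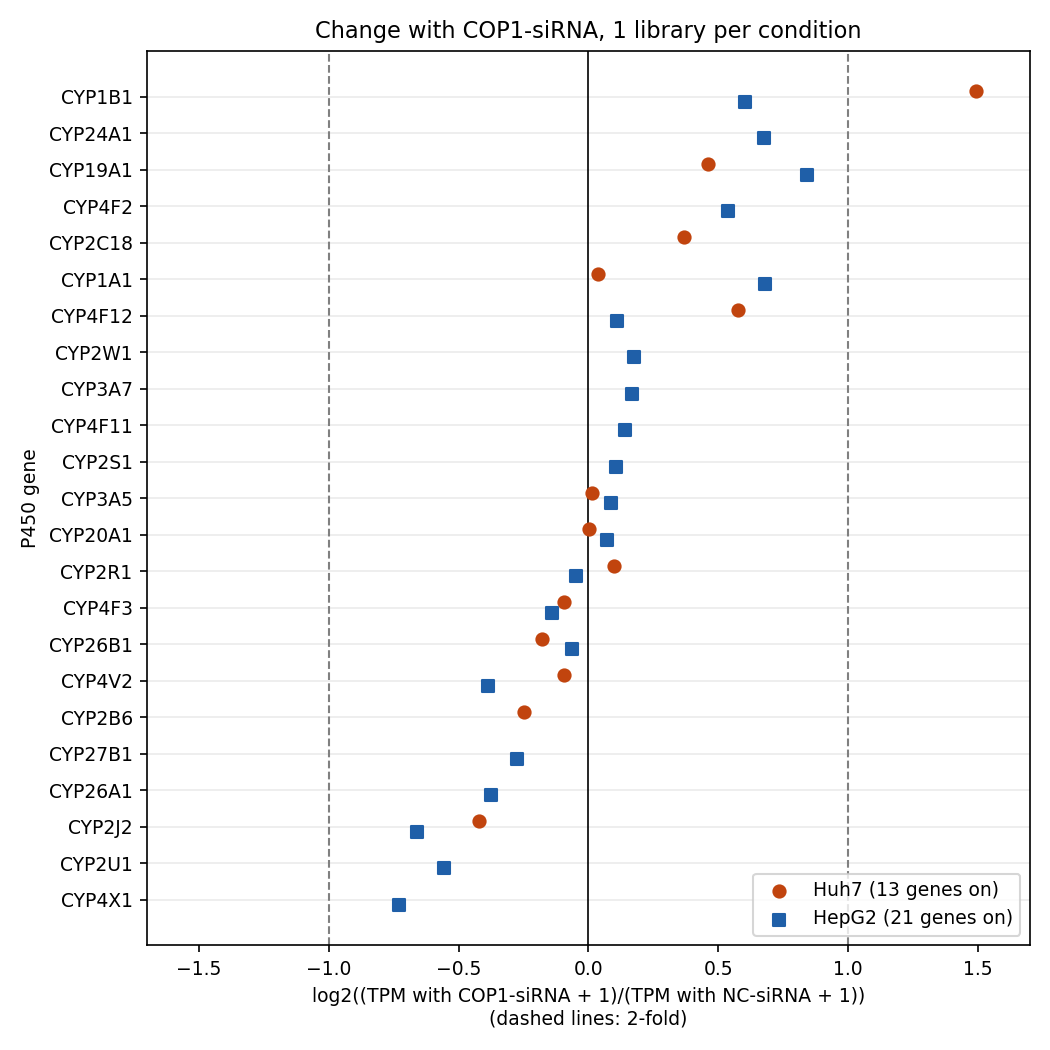
Log2 change with COP1-siRNA for each P450 gene in each line where it was on, with 13 circles for Huh7 and 21 squares for HepG2, each from 1 library per condition. Dashed lines mark 2-fold. The circle of CYP1B1, at 1.49, is the one point beyond a dashed line, and the lowest point is CYP4X1 in HepG2, at −0.73.

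Taking all members that were on, the median log2 change was 0.01 in Huh7, with 8 values above 0 and 5 below, and 0.09 in HepG2, with 12 above and 9 below. By scaled coverage the HepG2 median was −0.038. The medians of all genes on were −0.00083 and −0.0080. Of the 11 members on in both lines, 10 had the same sign of change in both, 6 higher and 4 lower, with CYP2R1 the exception, whereas 60.2% of the 11970 genes on in both lines did. Many of these changes were close to 0: that of CYP20A1 was 0.0016 in Huh7, and its sign differed between the lines under median-of-ratios scaling and scaled coverage, which left 9 of 11. A threshold of 1.3-fold in both lines, chosen after the values were seen, left CYP1B1 and CYP19A1 as higher and CYP2J2 as lower, against 1.34% and 1.95% of all genes on in both. The values of CYP2J2 were lower with COP1-siRNA in each line, with log2 changes of −0.42 and −0.66.

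CYP19A1 had log2 changes of 0.46 in Huh7 and 0.84 in HepG2, by plain TPM 1.75-fold and 2.26-fold. Its mean coverage was 2.09 and 4.37 reads per base in Huh7, and 3.42 and 9.43 in HepG2. MIR4713HG, a non-coding gene that overlaps it on the opposite strand, was at 0.359 and 1.04 TPM in Huh7, and at 0.533 and 1.14 TPM in HepG2. The library kit kept the strand, but how reads of overlapping genes were assigned is not given in the sources used here. CYP19A1 has several tissue-specific starts, and RefSeq gives 7 windows for it. Printed here are a window that holds TGANTCA (N is any base), the site of AP-1, and one that holds AGGTCA. AP-1 was chosen because its subunit JUN is a known target of the COP1 ubiquitin ligase. Whether AP-1 has a part in the change of CYP19A1 was not tested. Each window was picked from the 7 for holding its letters, which 7.71% and 13.8% of all windows do. These shares are per window. A gene with 7 windows is more likely to hold the letters in at least 1 of them, and that share was not computed. The windows are chr15:51243866-51244165, with TGANTCA in capitals, and chr15:51242980-51243279, with AGGTCA in capitals, both on the minus strand.
CYP19A1 with TGANTCA: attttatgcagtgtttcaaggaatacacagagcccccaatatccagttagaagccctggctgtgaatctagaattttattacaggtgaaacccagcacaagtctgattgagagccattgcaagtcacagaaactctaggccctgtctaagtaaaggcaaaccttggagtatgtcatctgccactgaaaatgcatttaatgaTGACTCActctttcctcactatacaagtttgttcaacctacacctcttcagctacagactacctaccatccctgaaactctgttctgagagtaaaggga
CYP19A1 with AGGTCA: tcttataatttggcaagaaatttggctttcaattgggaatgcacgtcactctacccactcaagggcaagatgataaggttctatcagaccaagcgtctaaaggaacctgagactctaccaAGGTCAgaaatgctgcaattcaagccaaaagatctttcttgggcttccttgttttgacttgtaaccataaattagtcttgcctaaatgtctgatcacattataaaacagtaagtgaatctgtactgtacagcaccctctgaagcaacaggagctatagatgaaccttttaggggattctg
RefSeq windows were found for 36 members, 18 of them on. The members that were on and had none were CYP1B1, CYP2C18, CYP4F12, CYP24A1 and CYP27B1, so the counts that follow do not cover them. TGANTCA was present on either strand in 5 of the 30 windows of members that were on (those of CYP19A1, CYP3A7, CYP4F3 and CYP4F11), in 1 of the 19 windows of members that were not on, and in 7.71% of all windows. AGGTCA was present in 8 of 30 and 6 of 19, and in 13.8% of all windows. CCGGAAG, the site of ETS factors, was present in 2 of 30 and none of 19, and in 10.3% of all windows. TNGCGTG, a longer form of the AHR site that contains GCGTG, was present in 1 of 30 and none of 19, and in 5.51% of all windows. GCGTG itself, examined after the values were seen, was present in 7 of 30 and 5 of 19, and in 36.5% of all windows. The 30 windows belong to 18 genes, and 7 of them are those of CYP19A1.

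The partners of the P450 enzymes were present in both lines, and none of them passed 2-fold with COP1-siRNA. All 9 redox partners were on in both lines, and their log2 changes spanned −0.21 to 0.04 (Huh7) and −0.07 to 0.30 (HepG2). POR was at 146 and 129 TPM in Huh7 and at 64.0 and 76.1 TPM in HepG2. FDXR, the reductase that feeds the mitochondrial P450 enzymes, was at 2.75 and 2.56 TPM in Huh7 and at 29.0 and 35.6 TPM in HepG2. All 8 genes of heme synthesis were on, and their changes spanned −0.26 to 0.19 (Huh7) and −0.29 to 0.22 (HepG2). ALAS1, the rate-limiting enzyme of heme synthesis in the liver, was at 134 and 124 TPM in Huh7 and at 52.0 and 56.1 TPM in HepG2.

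Of 13 regulators of P450 genes, 10 were on in each line and none passed 2-fold. AHR was at 69.5 and 56.2 TPM in Huh7 and at 6.79 and 7.53 TPM in HepG2, and ARNT at 18.9 and 16.6 TPM in Huh7 and at 31.9 and 31.5 TPM in HepG2. The drug receptors NR1I2 (PXR) and NR1I3 (CAR) did not reach 1 TPM in any library, and their highest values were 0.885 and 0.219 TPM, both in HepG2. The liver factors HNF4A, FOXA2 and CEBPA, and RXRA, the partner of PXR and CAR, were higher in Huh7, with RXRA at 55.6 and 41.6 TPM there and at 11.5 and 13.5 TPM in HepG2. Of 4 AHR targets outside the family (AHRR, also counted as a regulator, among them), 2 were on in Huh7, where NQO1 and TIPARP had log2 changes of −0.52 and −0.36, and all 4 in HepG2, where ALDH3A1 had 0.78 and none passed 2-fold. In Huh7 CYP1B1 was past 2-fold, while CYP1A1, with 0.04, NQO1 and TIPARP were not. In HepG2 CYP1A1 had 0.68 and CYP1B1 0.60, and NQO1, TIPARP and AHRR had 0.13, 0.08 and −0.18. Whether AHR has a part in any of these changes was not tested. Of 3 retinoic acid targets outside the family, DHRS3 and RARB were on, and their changes lay between −0.14 and 0.27 in both lines.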

How the data were processed

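The 4 libraries, of polyadenylated RNA with the strand kept, were assigned to their conditions from their titles. Per the labels, FastQC 0.11.7, Trimmomatic 0.38, HISAT2 2.1.0, StringTie 2.1.3b and edgeR were used on GRCh38. For each gene and library the authors deposited a coverage, not normalized for depth, an FPKM and a TPM, which sums to 1000000. The tables hold no read counts, so the number of reads and the counting error of a value are unknown. TPM was summed per gene number (49 to 51 numbers stood on more than 1 line, no member among them). Symbols, and the promoter windows, came from RefSeq (GRCh38.p14). Changes used a pseudocount of 1 and a 2-fold threshold. The study also used 2-fold, but together with a p-value limit, and its fold may have been computed otherwise. It lists COP1 as lower in both lines, whereas by the measure used here COP1 did not pass 2-fold in HepG2. Every member on in at least 1 library was named, and silent members by role. The members, roles and lists were chosen with earlier results of these data known. The motif GCGTG was chosen after the values were seen. Alternatives were pseudocount 0.1, FPKM, median-of-ratios, upper-quartile scaling, scaled coverage, other minimum levels and 1.5-fold. Some items are not reported here. The fold computation was tested on simulated data. Python 3.11.15, numpy 2.4.6, pandas 2.3.3 and matplotlib 3.10.9 were used.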

Additional observations from a re-analysis of the deposited data

Results flagged for a closer look

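Among the 11 P450 genes on in both lines, CYP2R1 was the one whose change had opposite signs by TPM, with a log2 change of 0.10 in Huh7 and −0.047 in HepG2. With 1 library per condition this difference was not tested. CYP20A1 joined it under median-of-ratios scaling and scaled coverage. For CYP2R1 both values are small beside the standard deviation of 0.30 and 0.28 across all genes on.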

How the results depend on the processing

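CYP1B1 was the one member past 2-fold in Huh7 under all 8 alternatives. With a minimum of 5 TPM, 8 members were on in Huh7 and 6 in HepG2. In HepG2, 3 members passed 2-fold with a pseudocount of 0.1, and 6 passed 1.5-fold. The median log2 change of members in HepG2 was −0.038 by scaled coverage. Between the lines, 10 members were apart by FPKM and 8 with a minimum of 5 TPM. Of 136 changes of single members recomputed with pseudocount 0.1, FPKM, median-of-ratios and scaled coverage, 4 changed sign, all of CYP20A1 and CYP3A5, whose values by TPM did not exceed 0.09, and the recomputed value farthest from 0 was −0.11, of CYP3A5 in HepG2 by scaled coverage. The counts of members on with both libraries required (13 in Huh7, 18 in HepG2) and by scaled coverage (15 and 20) were chosen after the values were seen. No replicate could be left out, since each condition has 1 library, and the labels give no replicate numbers. A fit of siRNA with the line as a block over the 4 libraries was not run. The number of reads is unknown, so a gene listed at 0 was not detected, and its absence is not shown.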
